A study of Homo sapiens with 94 samples.

Results

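The early response of a tumor to a TEAD inhibitor was followed in xenografts of NCI-H226. This established line came from a human mesothelioma of the pleura and lacks the tumor suppressor NF2. The comparison covered the 20 tumors of 94 in the series that received either K-975 at 100 mg/kg or the vehicle and were taken 3 to 6 h later. The members were assigned by the dose and cage group in their labels. The 10 treated tumors were those of cage groups 6 and 7, and the 10 vehicle tumors those of cage groups 2 and 3, with 5 mice in each cage group. All were grown under the skin of SCID mice, which lack functional T and B cells, and each mouse received a single oral administration. Treated mice received 10 mL/kg and vehicle mice 20 mL/kg of the same ethanol, Solutol and glucose mixture, so drug and dosing volume cannot be told apart in this comparison. The labels do not say which cage groups were sampled at 3 h and which at 6 h, so within the 20 tumors the sampling time and the cage cannot be told apart either. The same study held 10 tumors at 200 mg/kg (20 mL/kg), 10 at 30 mg/kg (10 mL/kg) and 5 untreated tumors.

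TEAD1 to TEAD4 are DNA-binding proteins with little activity of their own. They recruit the co-activators YAP1 and WWTR1 (TAZ), which the Hippo kinases keep out of the nucleus. NF2 acts upstream of those kinases, and cells without it restrain YAP1 less. A lipid, palmitate, sits in a pocket of each TEAD protein, and K-975 binds covalently in that pocket. Well-known target genes of YAP1 and TEAD encode secreted matrix-associated proteins (CCN1, also called CYR61, and CCN2, also called CTGF) and members of the Hippo pathway itself, such as AMOTL2 and AJUBA.

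Expression was measured by RNA-seq after capture with probes and deposited as FPKM, which scales fragments to transcript length and to the total of the library. These values hold no read numbers, and depth per library is therefore unknown. Each of the 20 libraries held 11407 to 11654 genes at an FPKM of at least 1, and 15.9% to 17.7% of the summed FPKM came from the 10 genes with the highest values. An index of relative depth, read from how large 1266 seldom-detected genes were where they appeared, ranged from 0.895 to 1.30 in cage group 6, from 0.528 to 0.934 in cage group 7 and from 0.722 to 1.15 in the vehicle tumors. The highest correlation between any 2 of the 20 libraries was 0.978, and none was taken for a second copy of another. For NF2 the table gives 0 in 15 of these libraries and at most 0.244 in the others. POLR2A, which every cell transcribes, was listed at 0 in 10 of them, so a value of 0 in this table does not show that a gene was silent. All 10 mesothelioma markers chosen for this line passed the filter on low values, with MSLN (mesothelin) at 197 to 295 and CALB2 (calretinin) at 466 to 781 FPKM over the 20 tumors.

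In the tumors given K-975 at 100 mg/kg, a small group of genes was lower than with vehicle. It included CCN1, CCN2 and AMOTL2, targets of YAP1 and TEAD. Of these 3 calls, that of CCN2 was lost in 11 of 20 refits without 1 tumor. Of 12518 genes tested, 33 (0.264%) differed from vehicle at an adjusted p under 0.05 in limma, a linear model of log2(FPKM + 1) with p-values adjusted by Benjamini-Hochberg over all genes. Of these, 23 (0.184%) were lower and 10 (0.0799%) were higher in the treated tumors. Without adjustment, 1263 genes (10.1%) had a p under 0.05. No gene separated all 10 treated from all 10 vehicle tumors in either direction. At least 8 of the 10 treated tumors lay below every vehicle tumor for 21 genes (0.168%) and above every vehicle tumor for 12 (0.0959%). Fold changes are differences of log2(FPKM + 1), and for genes with low values they are smaller than the true change. The count was 6 with the cage group as a random block, 21 with only the compared groups in the fit, 54 with 91 libraries and 1 with all 94, of which 3 were shallow. The gene kept in that last fit was ST20-MTHFS, and CCN1 and AMOTL2 did not pass in it. Without 1 tumor it ran from 19 (replicate 5 of vehicle cage group 2 left out) to 53 (replicate 1 of that cage group left out). P-values of the main fit measure the spread between mice within a cage group and not the spread between cage groups. In whole tumors, fewer cells of a type and less RNA per cell cannot be told apart.

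CCN1, a secreted matrix-associated protein (GRCh38, chromosome 1, 85580761 to 85583962), had the lowest p of all genes. Its FPKM in the vehicle tumors had a lowest value of 148, a median of 204 and a highest of 271. The treated tumors had a lowest value of 89.4, a median of 112 and a highest of 192. All treated tumors but 1 lay below the lowest vehicle tumor. The mean fell from 205 ± 39.9 to 120 ± 31.4 FPKM (SD, n = 10 each), which is a log2 fold change of -0.78 ± 0.11 (SE, adjusted p = 0.000124 in limma).

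CCN2, the related protein once called CTGF (chromosome 6, 131948176 to 131951373), was present at much lower values. Vehicle tumors ranged from 7.70 to 12.6 FPKM with a median of 9.63, and treated tumors from 2.96 to 9.88 with a median of 5.95. In 8 of the 10 treated tumors the value lay below all vehicle tumors. The log2 fold change was -0.63 ± 0.14 (SE, adjusted p = 0.0341 in limma), from a mean of 9.80 ± 1.49 to 6.20 ± 2.07 FPKM (SD, n = 10 each). This call was lost in 11 of 20 refits without 1 tumor, with the cage group as a random block, with only the compared groups in the fit, against either vehicle cage group alone and with all 94 libraries.

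AMOTL2, an angiomotin family protein that binds YAP1 and holds it at cell junctions (chromosome 3, 134355874 to 134375479), had the second lowest p. Its FPKM was 22.3 to 35.6 (median 27.5) in vehicle tumors and 13.6 to 22.5 (median 19.2) in treated tumors. The groups overlapped by a single tumor on each side, since 9 treated tumors lay below all vehicle tumors and 9 vehicle tumors above all treated ones. The log2 fold change was -0.62 ± 0.09 (SE, adjusted p = 0.000191 in limma), and the mean fell by 36.1%.

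A smaller change was found for AJUBA, a LIM-domain scaffold that restrains the LATS kinases (chromosome 14, 22971174 to 22982642). Its values were 46.7 to 75.1 FPKM (median 62.6) with vehicle and 39.1 to 58.3 (median 45.8) with 100 mg/kg, so the ranges shared the values from 46.7 to 58.3. The log2 fold change was -0.36 ± 0.07 (SE, adjusted p = 0.0131 in limma). VGLL3, a vestigial-like cofactor that binds TEAD proteins in place of YAP1 (chromosome 3, 86937969 to 86991119), ranged from 141 to 172 FPKM (median 152) with vehicle and from 94.7 to 144 (median 127) with 100 mg/kg. All but 1 of the treated tumors were below the lowest vehicle tumor, and the log2 fold change was -0.33 ± 0.07 (SE, adjusted p = 0.0160 in limma). Both calls were lost with the cage group as a random block, with the cage groups pooled, with all 94 libraries and against vehicle cage group 3 alone, and that of VGLL3 also against vehicle cage group 2 alone and with 91 libraries.

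**Figure D1:**
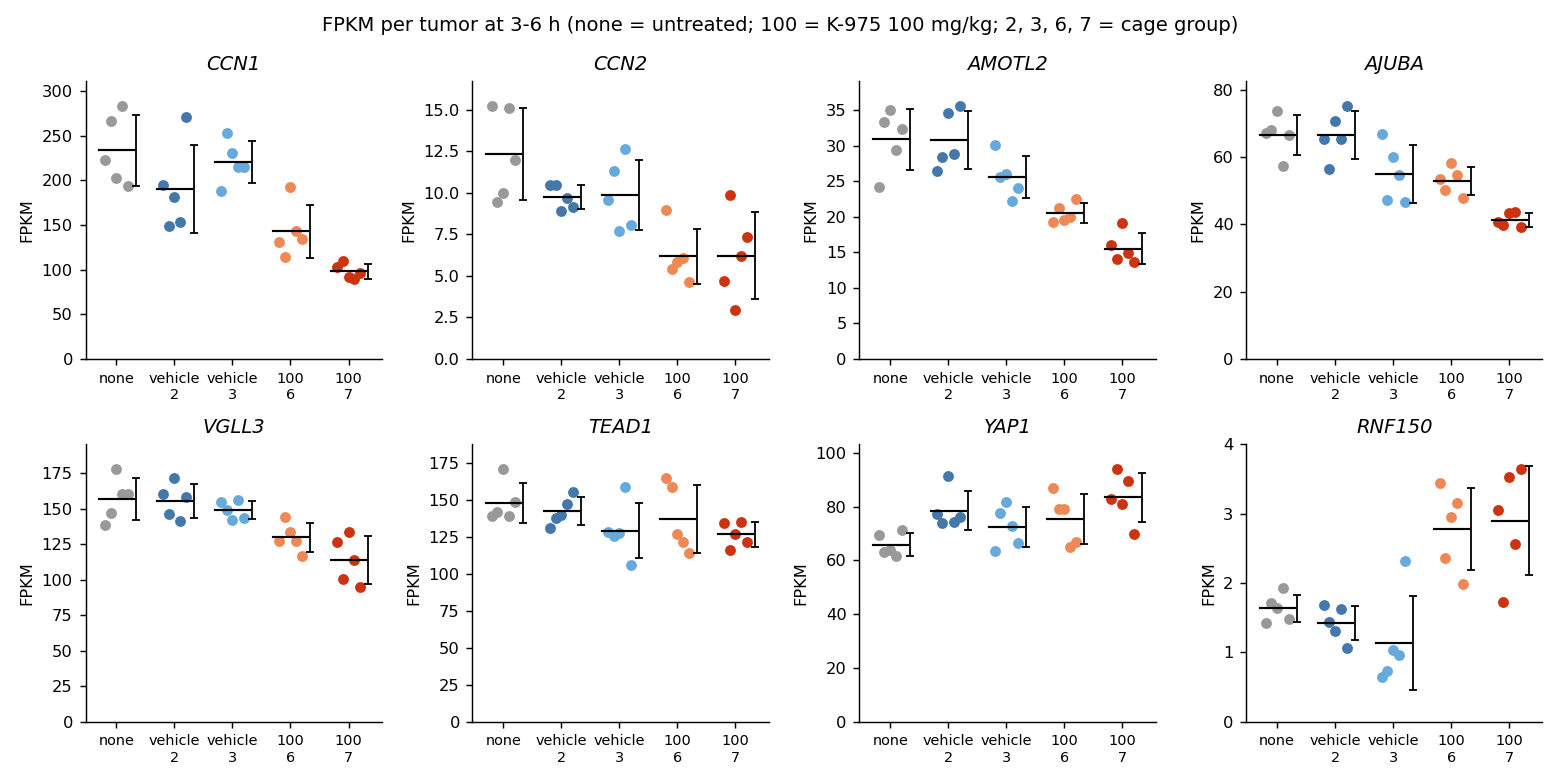
FPKM of 8 genes in each tumor at 3-6 h, by cage group (none stands for the 5 untreated tumors). Points are tumors, horizontal lines are means and bars are the SD of 5 tumors. CCN1 lies at 89.4 to 110 in cage group 7 and 114 to 192 in cage group 6, against 148 to 271 with vehicle, whereas TEAD1 and YAP1 overlap in all groups.

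The promoters of the lower genes were searched for the core letters of the TEAD recognition motif, because several of these genes are described targets of TEAD. RefSeq promoter windows (GRCh38.p14, 250 bases before to 50 after a start) were matched for 20 of the 23 lower genes, and ADAMTS15, CCN1 and NOLC1 had none in the table used. The letters CATTCC, or GGAATG when read on the other strand, stood in a window of 5 of these 20 genes (25%) and of 2 of the 10 higher genes (20.0%, MPP2 and ZBTB7C). Of the 10064 tested genes with a window, 15.1% held them, as did 14.0% of all 35116 windows. A gene with several starts counts once if any of its windows held the letters. For AMOTL2, AJUBA and MAMDC2 the window is 1 of 2 in the table. A match is a description of these letters and not of a bound site. The 200 bases before the start are shown for the 4 lower genes in which the match lies wholly before the start, from 5′ to 3′ on the strand of the gene, with the match in capitals. The fifth gene, PRPS1, has its match across the start itself, from position -2.

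CCN2 (chr6:131951373-131951572, minus strand): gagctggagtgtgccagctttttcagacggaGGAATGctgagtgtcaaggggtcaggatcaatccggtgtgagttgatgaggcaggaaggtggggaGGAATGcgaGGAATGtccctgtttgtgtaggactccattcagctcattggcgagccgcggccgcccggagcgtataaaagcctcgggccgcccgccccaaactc
AMOTL2 (chr3:134374448-134374647, minus strand): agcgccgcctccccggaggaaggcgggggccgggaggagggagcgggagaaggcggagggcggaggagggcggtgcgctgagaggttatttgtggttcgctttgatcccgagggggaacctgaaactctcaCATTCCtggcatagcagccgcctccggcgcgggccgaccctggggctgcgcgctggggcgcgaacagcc
AJUBA (chr14:22976843-22977042, minus strand): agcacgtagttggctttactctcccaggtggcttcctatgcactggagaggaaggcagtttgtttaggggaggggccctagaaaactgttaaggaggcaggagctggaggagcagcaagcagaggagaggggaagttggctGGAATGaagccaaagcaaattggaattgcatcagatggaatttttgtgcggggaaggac
MAMDC2 (chr9:70043381-70043580, plus strand): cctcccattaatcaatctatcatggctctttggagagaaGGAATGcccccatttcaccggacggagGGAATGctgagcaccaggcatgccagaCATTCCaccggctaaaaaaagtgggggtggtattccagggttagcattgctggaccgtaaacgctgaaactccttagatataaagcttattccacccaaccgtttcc

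CCN2 and MAMDC2 each hold the letters 3 times, starting 169, 104 and 95 bases before the start in CCN2 and 161, 134 and 107 in MAMDC2, whereas AMOTL2 and AJUBA hold them once, at 69 and 59 bases before it.

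TEAD1 to TEAD4, YAP1 and WWTR1 themselves were not among the 33 genes. TEAD1 stood at 136 ± 15.6 FPKM with vehicle and 132 ± 17.2 with 100 mg/kg (SD, n = 10 each), a log2 fold change of -0.04 ± 0.07 (SE). The difference was -0.23 ± 0.15 for TEAD2, -0.13 ± 0.10 for TEAD3 and -0.22 ± 0.09 for TEAD4 (log2, SE). YAP1 had a log2 fold change of 0.07 ± 0.06 and WWTR1 of 0.24 ± 0.15 (SE). Adjusted limma p-values of these genes ran from 0.402 for TEAD4 to 0.895 for TEAD1. Of the 8 tested members of the list of TEADs and co-activators, VGLL3 was lower and none was higher, against 0.184% and 0.0799% of all genes. The list had a median log2 fold change of -0.09. Over all genes tested the median was 0.01.

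Of 25 Hippo kinases and upstream regulators tested, AMOTL2 and AJUBA were lower (against 0.184% of all genes), none was higher and 23 did not pass. The median of the list was -0.08, and 17 of the 25 had a log2 fold change below 0 (68.0%, against 46.8% of all genes). Among those that did not pass were the kinases NUAK1 (-0.40 ± 0.12, adjusted p = 0.156) and NUAK2 (-0.40 ± 0.13, adjusted p = 0.225) and WWC1, or KIBRA, which activates the Hippo kinases (-0.16 ± 0.05, adjusted p = 0.202, log2 and SE in limma). LATS2, a Hippo kinase and itself a YAP1 target, was at -0.15 ± 0.13.

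All 22 genes of a common YAP/TAZ target signature passed the filter. CCN1, CCN2 and AMOTL2 were lower (against 0.184% of all genes), none was higher and 19 did not pass. The median log2 fold change was -0.14, and 17 of the 22 lay below 0 (77.3%, against 46.8% of all genes). Among those not called, the tissue factor gene F3 went from 65.5 ± 30.1 to 39.4 ± 12.4 FPKM (log2 fold change -0.64 ± 0.24, adjusted p = 0.323). ANKRD1, a widely used reporter of YAP1 activity, went from 1.42 ± 0.330 to 0.846 ± 0.546 FPKM (-0.44 ± 0.15, adjusted p = 0.269), close to the lower limit of the filter. The receptor kinase AXL (-0.16 ± 0.08, adjusted p = 0.473), CRIM1 (-0.11 ± 0.05, adjusted p = 0.448) and GADD45A (-0.20 ± 0.09, adjusted p = 0.453) had small differences in limma that did not pass. PTPN14, a phosphatase that binds YAP1, stood at 0.20 ± 0.11, the highest of the signature.

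The other genes that fell are described by what each is known to do, an order chosen after their values were seen. PPME1, the methylesterase of protein phosphatase 2A, had 270 to 663 FPKM (median 450) with vehicle and 171 to 411 (median 235) with 100 mg/kg, and a log2 fold change of -0.76 ± 0.14 (SE, adjusted p = 0.00726 in limma). The treated range reached up into the vehicle range, with 6 treated tumors below all vehicle tumors. PRPS1, which makes the phosphoribosyl donor of nucleotide synthesis, was at 67.8 to 127 FPKM (median 88.4) with vehicle and 51.5 to 77.9 (median 62.3) with 100 mg/kg, with 9 vehicle tumors above all treated tumors (-0.53 ± 0.10, adjusted p = 0.00726 in limma). HACD1, a dehydratase of fatty acid elongation, fell by 21.8%, and its call was lost in 5 of 20 refits without 1 tumor.

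Kinases and phosphatases among the lower genes were PLK2, FYN and PTPN1. The polo-like kinase PLK2 went from 299 ± 65.9 to 214 ± 34.5 FPKM (SD, n = 10 each, log2 fold change -0.47 ± 0.09), and 3 of the 10 treated tumors were below all vehicle tumors. FYN, a Src family kinase, went from 75.4 ± 12.5 to 52.5 ± 13.4 FPKM (-0.54 ± 0.12), with 8 tumors below. The FYN call was lost in 7 of 20 refits without 1 tumor. PTPN1, the tyrosine phosphatase PTP1B, changed little in size, from 58.7 ± 3.51 to 49.1 ± 6.33 FPKM (-0.26 ± 0.05), but 9 of the 10 treated tumors lay below the narrow vehicle range of 54.7 to 66.1.

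MAMDC2, a secreted proteoglycan, ranged from 8.47 to 23.8 FPKM (median 12.6) with vehicle and from 1.86 to 11.4 (median 6.97) with 100 mg/kg. It had the largest fall among genes not sharing reads with another gene, at -0.95 ± 0.20 (SE, adjusted p = 0.0162 in limma), with 9 tumors below all vehicle tumors. The secreted protease ADAMTS15 fell by 32.3% and the related ADAMTSL4 by 24.0%. STXBP6, a regulator of vesicle fusion, was at 22.1 to 42.8 FPKM (median 30.3) with vehicle and 14.8 to 24.8 (median 20.0) with 100 mg/kg (-0.62 ± 0.11, adjusted p = 0.00726 in limma). AP4E1, a subunit of the AP-4 coat, fell by 28.5%, with 8 tumors below.

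The remaining lower genes were PRR16 (-0.67), FRMPD3 (-0.85), TMEM120B (-0.59), MAD2L1BP (-0.54), which acts in the mitotic checkpoint, NOLC1 (-0.33), a nucleolar protein, and SH3RF1 (-0.32), a scaffold of the JNK pathway, each given as a log2 fold change. The calls of TMEM120B, NOLC1, FRMPD3, MAD2L1BP and SH3RF1 were lost in 13, 11, 10, 5 and 4 of 20 refits without 1 tumor. The entry with the largest fall was ST20-MTHFS, a readthrough of the neighboring genes ST20 and MTHFS. It had a log2 fold change of -1.64 ± 0.32 (SE, adjusted p = 0.00861 in limma), from 3.57 ± 2.46 to 0.702 ± 2.07 FPKM. The readthrough shares its exons with both genes, so its value is uncertain. A single treated tumor of cage group 7, at 6.57 FPKM, held nearly all of the treated sum, and the median of the treated tumors was 0.000295. Values this small can be failed estimates.

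None of the 10 genes that rose was a member of a list. RNF150, a RING finger protein, was at 0.641 to 2.32 FPKM (median 1.19) with vehicle and 1.72 to 3.65 (median 3.01) with 100 mg/kg. In 8 of 10 treated tumors it exceeded every vehicle tumor, and its mean was 2.84 against 1.28 FPKM (log2 fold change 0.76 ± 0.14, adjusted p = 0.00726 in limma). The protocadherin PCDH1 rose from 0.859 ± 0.428 to 1.84 ± 0.677 FPKM (0.60 ± 0.12), also at low values. RGS3, which dampens G-protein signaling, rose from 25.5 ± 7.62 to 36.1 ± 5.40 FPKM (0.52 ± 0.11), and the scaffold MPP2 from 8.63 ± 2.08 to 13.2 ± 3.50 FPKM (0.56 ± 0.12). With untreated tumors in place of vehicle, 9 of the 33 calls were kept, all of them of lower genes. Against vehicle cage group 2 alone, the calls of RNF150, PCDH1, RGS3 and MPP2 were lost. PCDH1, RGS3 and MPP2 also did not pass with the cage group as a random block or with only the compared groups in the fit.

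Transcription factors among the higher genes were KLF11 (0.35 ± 0.08), a factor induced by TGF-beta, ZNF503 (0.38 ± 0.09) and ZBTB7C (0.77 ± 0.18), as log2 fold changes with SE. ZBTB7C had 0.0843 to 1.07 FPKM with vehicle, and its treated mean of 1.83 included a tumor at 6.53. PXDN, a peroxidase that crosslinks collagen IV, rose by 28.6% and C15orf39 by 28.0%. The calls of KLF11, ZNF503, ZBTB7C, PXDN and C15orf39 were lost in 11, 12, 8, 15 and 7 of 20 refits without 1 tumor. The smallest change that passed was that of BCAR1, the adaptor p130Cas, which moved from 138 to 151 FPKM with vehicle (median 148) to 149 to 167 (median 160). It was above every vehicle tumor in 9 treated tumors, with a log2 fold change of 0.12 ± 0.03 (SE, adjusted p = 0.0487 in limma). This call was lost in 16 of 20 refits without 1 tumor and in 10 of 14 other alternatives.

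The cage groups of the treated mice differed in how far they moved from vehicle. Against the same 10 vehicle tumors, cage group 6 gave 0 genes (0% of 12518, and 1 without replicate 3 of vehicle cage group 2) at an adjusted p under 0.05 in limma, with 615 (4.91%) at an unadjusted p under 0.05. Cage group 7 gave 135 genes (1.08%), of which 80 (0.639%) were lower and 55 (0.439%) higher, and 1666 (13.3%) at an unadjusted p under 0.05. That count was 47 against vehicle cage group 3 alone and 0 in the fit with all 94 libraries, and 67, 74, 75, 76 or 87 without replicate 3, 4 or 1 of cage group 7 or replicate 5 or 3 of vehicle cage group 2. Set directly against each other, cage groups 7 and 6 differed in 0 genes in limma, with 912 (7.29%) at an unadjusted p under 0.05, so the difference between the cage groups was not itself shown for any gene. For comparison, the 2 vehicle cage groups differed in 6 genes (0.0479%), all higher in cage group 3 (FBXO32, MAFF, PFKFB4, HKDC1, FNIP1 and FNDC3B), with 1209 (9.66%) at an unadjusted p under 0.05. None of the 6 is among the 33. The depth index given above was lower in cage group 7 than in cage group 6, and its part in these counts was not tested. Library numbers of cage groups 2 and 6 fall in a run apart from that of cage groups 3 and 7. The mean depth index was 1.02 and 1.16 in cage groups 2 and 6, and 0.925 and 0.807 in 3 and 7. What the numbering stands for is not stated, and it cannot be told apart from the cage group.

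CCN1 in the 5 tumors of cage group 6 was 114, 131, 135, 143 and 192 FPKM, and in the 5 of cage group 7 it was 89.4, 91.4, 95.8, 103 and 110. These ranges did not overlap, but how many of all genes were separated in this way was not counted. The log2 fold change against vehicle was -0.52 ± 0.13 in cage group 6 (adjusted p = 0.670) and -1.04 ± 0.13 in cage group 7 (adjusted p = 1.51e-05, both SE in limma). The difference between the cage groups was -0.52, with an adjusted p of 0.366 in limma. AMOTL2 was 19.2, 19.6, 20.0, 21.3 and 22.5 FPKM in cage group 6 and 13.6, 14.1, 14.9, 16.0 and 19.1 in cage group 7 (log2 fold changes of -0.43 ± 0.11 and -0.82 ± 0.11). For CCN2 the cage groups gave similar values, -0.60 ± 0.17 and -0.65 ± 0.17, as they did for PRPS1 (-0.53 ± 0.12 in both), STXBP6 (-0.59 ± 0.14 and -0.64 ± 0.14) and RNF150 (0.74 ± 0.17 and 0.78 ± 0.17). PRR16, PPME1 and PTPN1 stood further apart, with -0.29 against -1.05, -0.40 against -1.12 and -0.12 against -0.40. The median size of the log2 fold change over the 33 genes was 0.33 in cage group 6 and 0.64 in cage group 7.

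**Figure D2:**
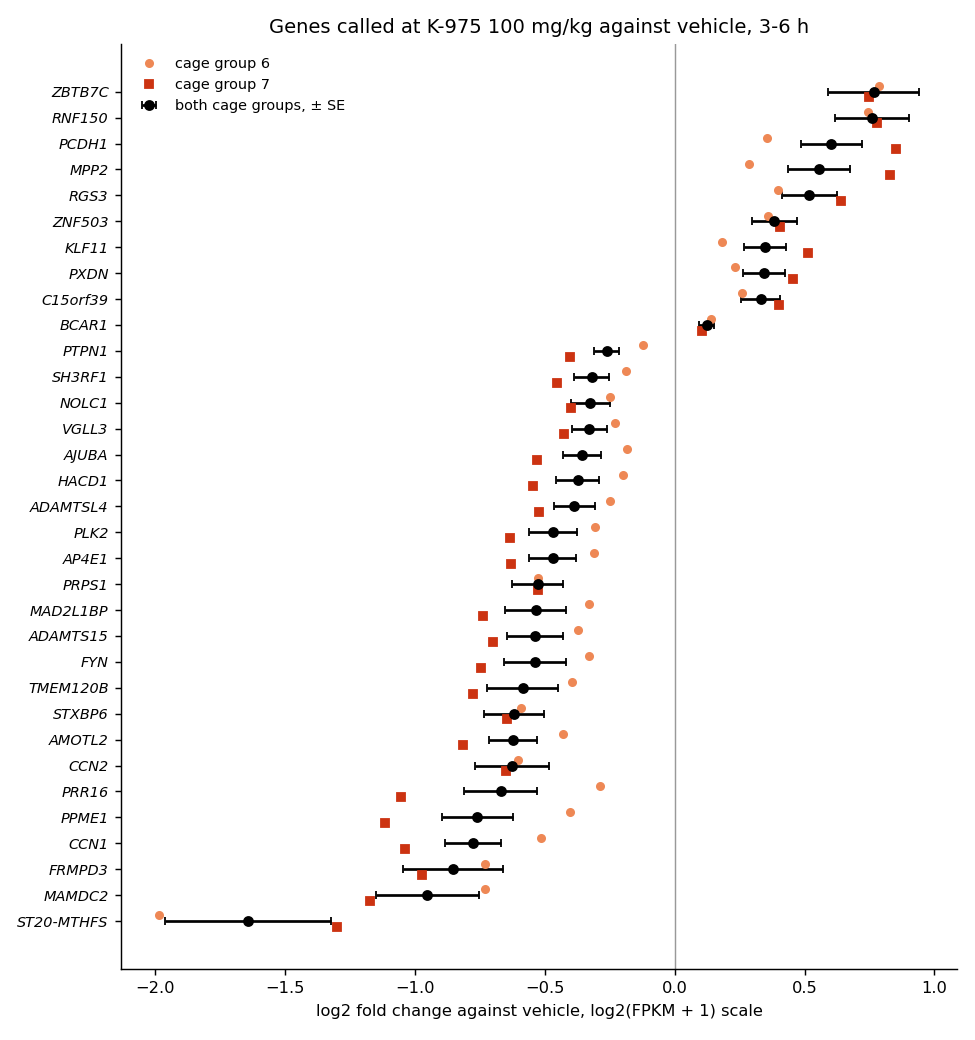
Log2 fold change against vehicle of the 33 genes called at 100 mg/kg, on the log2(FPKM + 1) scale. Black points with bars give both cage groups together with the SE, orange circles cage group 6 and red squares cage group 7. CCN1 lies at -0.52 in cage group 6 and -1.04 in cage group 7, whereas PRPS1 lies at -0.53 in both.

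In cage group 7 alone, further members of the lists passed. WWC1 fell from 377 ± 30.5 FPKM with vehicle to a mean of 308 in that cage group (log2 fold change -0.29 ± 0.06, adjusted p = 0.0153), and its relative WWC2 from 71.1 to 54.8 (-0.37 ± 0.08, adjusted p = 0.0187, both in limma). In cage group 6 they stood at -0.04 and -0.05. With AMOTL2 and AJUBA they made 4 of 25 Hippo regulators (16.0%) lower in cage group 7, against 0.639% of all genes. NRG1, a ligand of the ERBB receptors, was 7.64 with vehicle and 3.68 in cage group 7 (-0.80 ± 0.20, adjusted p = 0.0311 in limma), and over both cage groups it stood at -0.65 with an adjusted p of 0.0606. SKP2, which targets cell cycle inhibitors for degradation, fell from 118 to 73.3 FPKM (-0.67 ± 0.11), and in all 5 tumors it was below every vehicle tumor. In cage group 6, SKP2 stood at 108 FPKM (-0.10) and NRG1 at 4.85 (-0.49). BBC3, the pro-apoptotic PUMA gene, rose from 5.47 to 8.58 FPKM (0.56 ± 0.13, adjusted p = 0.0273 in limma) and was above every vehicle tumor in all 5, against 5.28 FPKM in cage group 6. How many of all genes had all 5 tumors of cage group 7 beyond every vehicle tumor was not counted. The chaperone HSPA8 fell from 250 to 200.2 FPKM (-0.32 ± 0.08, adjusted p = 0.0420 in limma), with 278 in cage group 6.

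The genes with the highest and lowest fold changes in cage group 7, named after their values were seen, included BARX2, a homeobox factor, with 3.95 FPKM in vehicle, 4.29 in cage group 6 and 10.7 in cage group 7 (log2 fold change 1.37 ± 0.26). TG (1.09 ± 0.24) and BARX2 were above every vehicle tumor in all 5 tumors of cage group 7. HAS1, a hyaluronan synthase, went from 0.417 to 2.12 FPKM (1.06 ± 0.23). In cage group 6, TG stood at 0.16 and HAS1 at 0.48. At the other end, CTPS1, which makes CTP, fell to 21.4 FPKM (-0.87 ± 0.20) with all 5 tumors below every vehicle tumor, and stood at 30.0 in cage group 6. Each of these passed in limma in cage group 7 and not over both cage groups. As above, the share of all genes with all 5 tumors beyond every vehicle tumor was not counted.

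The study's own score of YAP1-TEAD output rests on 249 positive and 233 negative effector genes, which it derived from public datasets of other experiments. Among the positive effectors, 237 passed the filter. Of these, 6 were lower (CCN1, CCN2, PLK2, PRPS1, SH3RF1 and STXBP6), none was higher and 231 did not pass. By the same threshold, 0.184% of all genes were lower. The median log2 fold change was -0.07, and 155 (65.4%) lay below 0, against 46.8% of all genes. At an unadjusted p under 0.05, 46 (19.4%) were lower and 1 was higher, against 4.89% lower and 5.20% higher over all genes. Positive effectors that were not called included SGK1 (from 163 ± 55.0 to 121 ± 40.8 FPKM, -0.44 ± 0.18, adjusted p = 0.394) and COL8A1, a collagen chain, which went the other way (from 132 ± 40.6 to 206 ± 51.7 FPKM, 0.65 ± 0.24, adjusted p = 0.309, both in limma).

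Of the 233 negative effectors, 188 passed the filter, and none was called in either direction, against 0.264% of all genes. Their median log2 fold change was 0.09, and 46 (24.5%) lay below 0. At an unadjusted p under 0.05, 23 (12.2%) were higher and 4 (2.13%) lower. The lowest p-values were those of CDC42EP4 (from 9.78 ± 1.80 to 13.3 ± 2.56 FPKM, log2 fold change 0.40 ± 0.11, adjusted p = 0.113), TUBB3, a neuronal tubulin (0.30 ± 0.09, adjusted p = 0.166), KLF10 (0.28 ± 0.09, adjusted p = 0.202) and GPNMB, which went the other way at -0.72 ± 0.23 (adjusted p = 0.203, all in limma) and at 0.20 with untreated tumors in place of vehicle. For vehicle minus untreated tumors, the medians were -0.05 for positive and 0.00 for negative effectors. Between the vehicle cage groups (3 minus 2) they were 0.02 and -0.01.

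**Figure D3:**
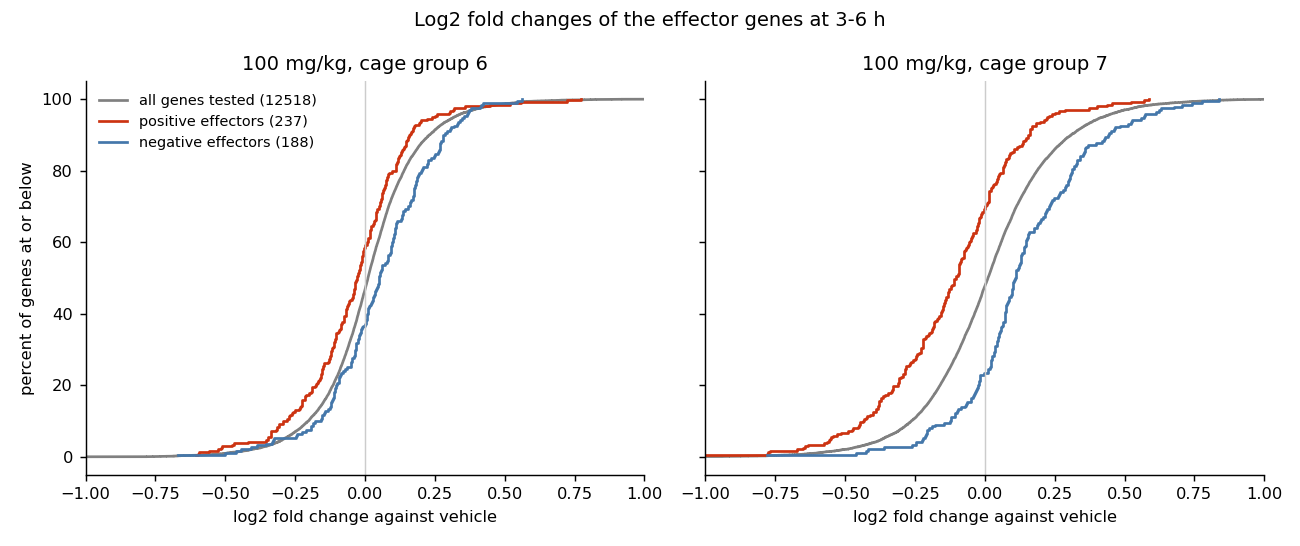
Cumulative percent of genes at or below each log2 fold change against vehicle, for cage group 6 (left) and cage group 7 (right), drawn between -1 and 1. Gray is all 12518 genes tested, red the 237 positive effectors and blue the 188 negative effectors. The medians are -0.03 and 0.05 for positive and negative effectors in cage group 6 and -0.10 and 0.11 in cage group 7.

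Within each tumor, the effector genes were ranked among themselves, and the mean fractional rank of the negative genes was subtracted from that of the positive genes to give the deR score. It is given here as a description, with no test. In vehicle tumors the score had a lowest value of 0.186, a median of 0.208 and a highest of 0.234, and in the treated tumors 0.170, 0.195 and 0.209. The groups overlapped, with 3 treated tumors below all vehicle tumors and 5 vehicle tumors above all treated tumors. All 3 belonged to cage group 7, whose score was 0.182 ± 0.0115, whereas cage group 6 stood at 0.203 ± 0.00635 and the vehicle cage groups 2 and 3 at 0.209 ± 0.0202 and 0.212 ± 0.00832 (SD, n = 5 each). Both parts of the score moved, which their shared ranking makes necessary. The mean rank of the positive genes was 0.603 ± 0.00710 with vehicle and 0.594 ± 0.00676 with 100 mg/kg, and that of the negative genes 0.392 ± 0.00759 and 0.401 ± 0.00722 (SD, n = 10 each). As both lists share 1 ranking, the mean rank of the positive genes fixes that of the negative genes, so the parts are not separate results.

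**Figure D4:**
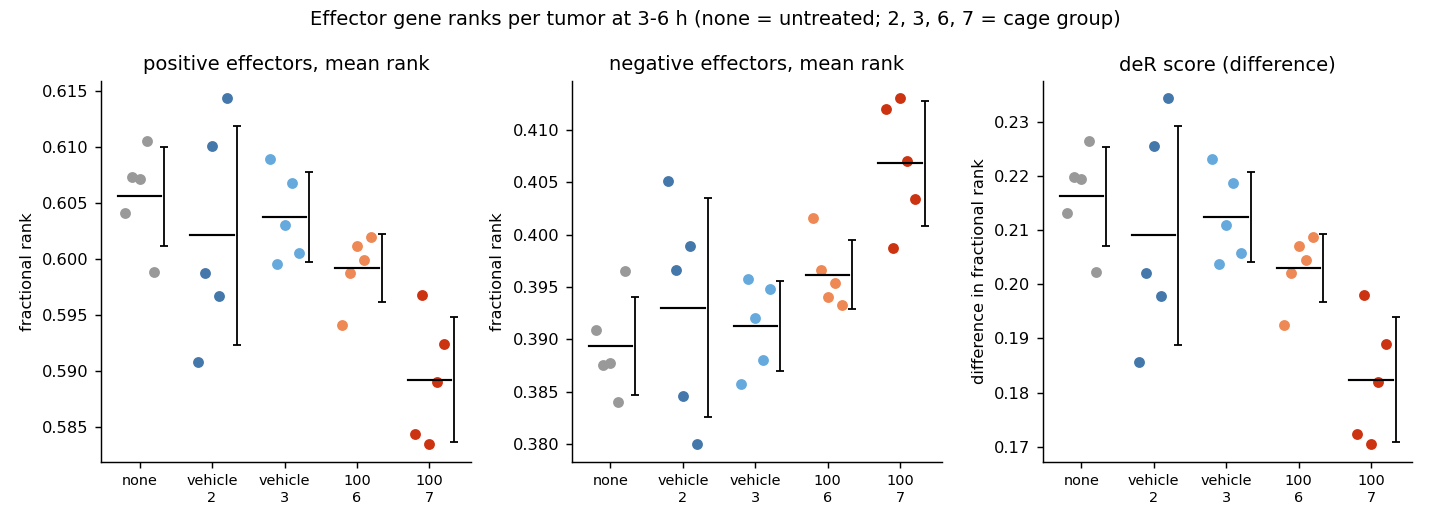
Mean fractional rank of the positive effectors, of the negative effectors and their difference, the deR score, in each tumor at 3-6 h, by cage group (none stands for the 5 untreated tumors). Points are tumors, lines are means and bars the SD of 5 tumors, and the vertical axes do not start at 0. The tumors of cage group 7 have scores of 0.170 to 0.198, against 0.186 to 0.234 in the vehicle tumors.

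The lists of other pathways held no gene that passed over both cage groups. These were SRF and actin genes, AP-1 and EGR factors, MAPK feedback, the EGFR family, the TGF-beta pathway, replication, mitosis, NRF2 targets, heat shock chaperones, metallothioneins, glucocorticoid-responsive and circadian genes, stress responses, lipid synthesis, hypoxia, interferon and cytokine genes, apoptosis regulators, palmitoylation enzymes and matrix genes. With 5 to 24 members tested in each and 0.264% of all genes called, these zeros are no result about the lists. Of the 23 matrix and integrin genes, 4 (17.4%) were higher and 0 lower at an unadjusted p under 0.05. Over all genes these shares were 5.20% and 4.89%. Members with the lowest p included MYC, which went from 51.9 ± 4.55 to 44.7 ± 1.48 FPKM (SD, n = 10 each, log2 fold change -0.21 ± 0.06, adjusted p = 0.118 in limma). BCL2L1, which encodes the survival protein BCL-XL, was at -0.23 ± 0.07 (adjusted p = 0.217), SMAD3 at 0.26 ± 0.09 (adjusted p = 0.223) and the collagen COL3A1 at 0.40 ± 0.12 (adjusted p = 0.172). The 24 genes of G1/S and DNA replication had a median of -0.10, with 18 below 0 (75%). The 23 of G2/M and mitosis had a median of 0.09, with 6 below 0 (26.1%), against 46.8% of all genes. Of 19 palmitoylation enzymes none was called, and ZDHHC18 had the lowest p (-0.32 ± 0.11, adjusted p = 0.253 in limma).

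Markers of other cells that the tumors could hold were low or listed at 0 in places. Of 9 leukocyte markers 4 passed the filter, and CD3E and MPO were at 0 in all 20 tumors. The summed FPKM of the leukocyte list was 67.7 to 178 in treated and 46.0 to 269 in vehicle tumors, nearly all of it CD68. The endothelial sum was 29.8 to 133 in treated and 52.5 to 104 in vehicle tumors, most of it KDR, with CLDN5 and EMCN at 0 throughout. For stromal fibroblasts and mural cells the sums were 47.1 to 82.2 and 44.8 to 73.6, and LUM, a matrix proteoglycan of fibroblasts, had a log2 fold change of 0.90 ± 0.30 (adjusted p = 0.225 in limma) at a mean of 2.20 against 0.777 FPKM. DCN, another such proteoglycan, had 0.93 ± 0.40 (adjusted p = 0.399 in limma) at 2.42 against 0.482 FPKM, and -0.22 when set against the untreated tumors. The 5 tested markers of this list had a median log2 fold change of 0.56, against 0.01 for all genes. Of them 1 lay below 0 (20%, against 46.8% of all genes). At an unadjusted p under 0.05, 2 were higher (40%, against 5.20% of all genes). In red blood cells 4 of 5 markers, and in muscle and fat 5 of 8, were at 0 in all 20. None of the tested markers was called, against 0.264% of all genes. Their part in the changes of the 33 genes was not tested, nor is it known how mouse reads were treated.

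The same genes were set beside the other doses of the study, which share the vehicle tumors. At 200 mg/kg 9 genes (0.0719%) differed from vehicle and at 30 mg/kg 1 gene (0.00799%), the readthrough ST20-MTHFS. At 200 mg/kg 8 of these (0.0639%) were lower and 1 (0.00799%) higher. At an unadjusted p under 0.05 there were 898 (7.17%) at 200 and 860 (6.87%) at 30 mg/kg. CCN1 had a log2 fold change of -0.38 at 30, -0.78 at 100 and -0.72 at 200 mg/kg, and means of 155 ± 15.5, 120 ± 31.4 and 125 ± 33.0 FPKM (SD, n = 10 each). AMOTL2 had -0.13, -0.62 and -0.53, CCN2 -0.31, -0.63 and -0.63, AJUBA -0.08, -0.36 and -0.37, and VGLL3 -0.11, -0.33 and -0.20. Directly compared, 100 and 200 mg/kg differed in 0 genes (0%) in limma, with 820 (6.55%) at an unadjusted p under 0.05. The difference of 100 minus 200 mg/kg was -0.05 ± 0.11 for CCN1 and -0.09 ± 0.09 for AMOTL2 (log2, SE). Between 100 and 30 mg/kg, both given at 10 mL/kg, 2 genes differed (0.016%), both lower at 100 mg/kg, with 1057 (8.44%) at an unadjusted p under 0.05. Leaving out 1 tumor brought this count to 0 to 3. AMOTL2 was 18.0 ± 3.14 FPKM at 100 and 25.7 ± 4.36 at 30 mg/kg, a log2 difference of -0.49 ± 0.09 (adjusted p = 0.0280 in limma). ESRP2, a splicing regulator of epithelial cells, was 7.98 ± 2.36 and 11.4 ± 1.55 FPKM, a difference of -0.49 with the same adjusted p.

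Vehicle itself did not differ from untreated tumors in any gene (0 of 12518 in limma, with 580, or 4.63%, at an unadjusted p under 0.05). CCN1 was 233 ± 39.4 FPKM in the 5 untreated tumors and CCN2 was 12.3 ± 2.74, both above the vehicle mean, at log2 differences of vehicle minus untreated of -0.19 and -0.29.

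The effect of the same dose at 24 h was taken from a separate study with its own 4 vehicle tumors. One of the 5 treated tumors at 24 h held too few detected genes and was left out, which left 4. In that fit of 12880 genes, 144 (1.12%) differed from vehicle at 24 h, 75 (0.582%) higher and 69 (0.536%) lower. Of the 33 genes, 4 also passed at 24 h in the same direction, which is 12.1% of the early and 2.78% of the late genes. They were PPME1 (-1.03 ± 0.22 at 24 h), MAMDC2 (-1.46 ± 0.37), STXBP6 (-0.73 ± 0.19) and ADAMTSL4 (-0.45 ± 0.12, log2 and SE). Of the 23 lower genes 20 had a log2 fold change below 0 at 24 h, and of the 10 higher genes 5 had one above 0. Over all genes tested at 3-6 h the median at 24 h was 0.03, and the share below 0 at that time was not counted. CCN1 (-0.68 ± 0.21, adjusted p = 0.0855) and CCN2 (-0.79 ± 0.22, adjusted p = 0.0503) were low at 24 h without passing in limma. AMOTL2 stood at -0.14 ± 0.14, AJUBA at -0.01 ± 0.11 and PLK2 at -0.01 ± 0.16, and RNF150 at 0.03 ± 0.26. For none of the 33 did the difference between the times pass, and it was -0.48 ± 0.17 for AMOTL2 (adjusted p = 0.291 in limma).

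Over all genes, that difference passed for 2 genes (0.0155%), 1 in each direction (0.00776% each), with 1315 (10.2%) at an unadjusted p under 0.05. The count was 0 with all 94 libraries and ran from 0 to 18 without 1 tumor. KLHL4 did not pass at 3-6 h (adjusted p = 0.957 in limma), with 4.52 ± 1.17 FPKM in vehicle and 4.75 ± 1.46 in treated tumors, and at 24 h was 1.71 ± 0.551 with vehicle and 7.04 ± 1.48 with 100 mg/kg (n = 4 each, log2 difference between the effects -1.52 ± 0.30, adjusted p = 0.0373 in limma). PEA15, an adaptor of ERK signaling, was 235 ± 19.4 and 226 ± 15.2 FPKM at 3-6 h and 242 ± 5.93 and 177 ± 7.41 at 24 h (0.40 ± 0.08, adjusted p = 0.0432 in limma).

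**Figure D5:**
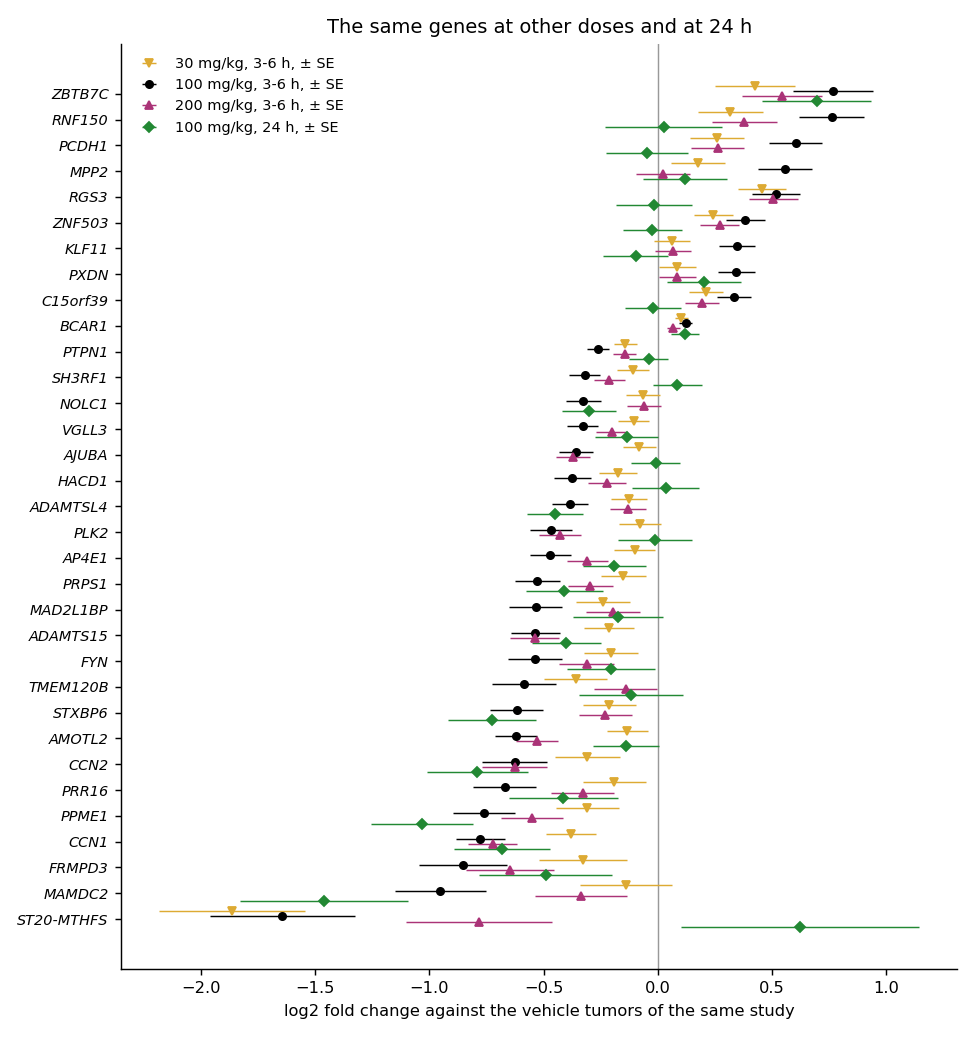
Log2 fold changes, with the SE, of the 33 genes called at 100 mg/kg and 3-6 h, at 30, 100 and 200 mg/kg at 3-6 h (same 10 vehicle tumors) and at 100 mg/kg and 24 h (4 treated and 4 vehicle tumors of another study). AMOTL2 lies at -0.62 at 3-6 h and -0.14 at 24 h, whereas MAMDC2 lies at -0.95 and -1.46.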

How the data were processed

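Tumors were preserved in RNAlater, and libraries were made from total RNA with the KAPA RNA HyperPrep and HyperCap kits and sequenced as paired ends. The deposited values are FPKM per gene, which the authors scaled to transcript length and library total. The submitters' processing notes name STAR and GRCh38. The quantifier and the treatment of mouse reads are not given in the sources used here. Capture with probes also sets the level of a gene. As FPKM hold no counts, no count test or counting interval was possible, and depth per sample is described by detected genes.

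Of 20555 entries, 1 per gene ID was kept (20239). Blank cells (32) were read as 0. Groups follow the labels, which carry no replicate numbers. The main fit used limma 3.58.1 in R 4.3.3 (lmFit, then eBayes with trend and robust) on log2(FPKM + 1), over the 45 libraries at 3-6 h with 1 coefficient per cage group (9 groups), and kept genes that reached 1 FPKM in 5 or more libraries. P-values were adjusted per comparison by Benjamini-Hochberg, with a threshold of 0.05. The comparison with 24 h used the 91 libraries with at least 10000 genes at an FPKM of 1. Each tumor came from 1 mouse. The script was tested on simulated data, drawn with the spread within cage groups and with no differences between cage groups. That test therefore cannot show how such differences affect the calls.

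The members and gene lists were chosen with earlier results of these data known. Genes were named if they were TEADs, co-activators or YAP/TAZ signature genes, among the 10 highest or lowest fold changes of called genes, or among the 4 members with the lowest p of another list. The remaining called genes, the further genes of cage group 7 and those of counts of 6 or fewer were named after their values were seen. The direct comparisons of cage group 7 with 6 and of vehicle cage group 3 with 2 were also added after seeing the data. The relative depth index is the inverse of the median ratio, in each library, of genes listed above 0 in 25% to 75% of the libraries to their own median over those libraries. Alternatives covered the pseudocount, the filter, scaling, the libraries fitted, cage handling, the reference group and leaving out each tumor.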

Additional observations from a re-analysis of the deposited data

Results flagged for a closer look

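In 186 checks of a group of 10 tumors, 14 held a tumor that stood apart from the rest by more of the group's range than Dixon's critical value for 10 values at 95%, where chance gives about 1 in 20. Among treated tumors of cage group 6, replicate 3 had the highest CCN1 (192 FPKM, next 143), and replicate 5 had the highest PTPN1 (62.9, next 53.0), ZBTB7C (6.53, next 2.00), WWC1 (435, next 363) and NRG1 (6.66, next 4.87). In cage group 7, replicate 4 had ST20-MTHFS at 6.57 (next 0.437), replicate 2 had the lowest HACD1 (45.1, next 75.3) and the highest COL3A1 (410.2, next 286), replicate 1 had the highest NR1D1 (10.1, next 7.41) and replicate 5 the lowest COL8A1 (94.0, next 177). Among vehicle tumors of cage group 3, replicate 1 had the highest MAMDC2 (23.8, next 14.8), replicate 4 the highest ANKRD1 (2.14, next 1.52), and replicate 5 the highest TEAD2 (23.5, next 11.2) and TPM2 (74.4, next 60.3), all in FPKM.

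The effect of 100 mg/kg differed between 3-6 h and 24 h, by the test of the difference in limma, for KLHL4 (log2 difference -1.52) and PEA15 (0.40).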

How the results depend on the processing

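The count of genes that differed from vehicle (33) was 21 with the fit limited to the groups compared, 54 with the 91 libraries of all studies, 1 (ST20-MTHFS) with all 94 libraries including the 3 shallow ones, 6 with the cage group as a random block (CCN1, AMOTL2, STXBP6, PRPS1, RNF150 and AP4E1), 17 against vehicle cage group 2 alone, 18 against vehicle cage group 3 alone and 21 against untreated tumors. The causes were not tested. Leaving out 1 tumor gave 19 to 53 genes, the lowest without replicate 5 and the highest without replicate 1 of vehicle cage group 2. In all 20 of these refits, 18 of the 33 genes passed, 15 of them lower. These 18 were CCN1, AMOTL2, PPME1, STXBP6, PRPS1, RNF150, PTPN1, AP4E1, PCDH1, ST20-MTHFS, PLK2, ADAMTS15, ADAMTSL4, RGS3, AJUBA, PRR16, VGLL3 and MAMDC2. For cage group 6 the count of 0 became 1 with a pseudocount of 0.1 and 1 with all 94 libraries, and 0 to 1 without a tumor (1 without replicate 3 of vehicle cage group 2). For cage group 7 the count of 135 became 0 with all 94 libraries and 47 against vehicle cage group 3 alone, and 67 to 166 without a tumor. The lowest counts there came without replicate 3 (67), 4 (74) or 1 (75) of cage group 7 and without replicate 5 (76) or 3 (87) of vehicle cage group 2. Against 200 mg/kg the range without a tumor was 0 to 1, with 1 without replicate 5 of cage group 7 or replicate 4 of cage group 5 (200 mg/kg). Against 30 mg/kg the 2 genes became 0 with all 94 libraries and 0 to 3 without a tumor, with 0 in the refits without replicate 1, 3 or 5 of cage group 6, replicate 1 or 2 of cage group 7, replicate 3 or 5 of cage group 8 or replicate 2, 3 or 4 of cage group 9 (both 30 mg/kg). For the difference from 24 h, the 2 genes became 5 with a pseudocount of 0.1, 0 with all 94 libraries and 0 to 18 without a tumor, with 18 without replicate 4 at 100 mg/kg and 24 h and 0 without replicate 4 of vehicle cage group 2, replicate 3 of cage group 6, replicate 2 or 5 of cage group 7, or replicate 2 or 3 of either 24 h group. All 33 genes kept their direction in the alternatives run. Of the other genes given values, TEAD1 changed sign against vehicle cage group 3 alone (0.0313), and with untreated tumors in place of vehicle IER2 (-0.0174), CD14 (-0.14), DCN (-0.22) and GPNMB (0.20) did, all as log2 fold changes. No paired analysis was possible because the labels carry no replicate numbers.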
